A study of Mus musculus with 4 samples.

Results

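The enzymes that write and erase DNA methylation, and the methylation reader Uhrf1 with its relative Uhrf2, were examined in fetal mouse brain after maternal ethanol. The 9 genes were taken by symbol from the array platform's annotation, using only probe sets (groups of array probes summarised as 1 value) that carry a single gene symbol. This gave 11 probe sets for 8 of the 9 genes, out of 19938 genes measured by 21789 such probe sets. Tdg was left without a value, because the 4 probe sets annotated with it also carry a second gene. Of the 11 probe sets, 10 had a mean level at or above 7.11 on the log2 scale, the median of all probe set means, and the probe set of Dnmt3b did not. In the comparisons across genes each gene was represented by its probe set with the highest mean, and 7 of the genes were among the 11013 that passed this filter, called kept genes below.

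There were 4 groups of fetal tissue from C57BL/6J mice: hippocampus after ethanol, hippocampus after PBS, forebrain after ethanol and forebrain after PBS. Dams received ethanol into the stomach (a daily dose of 2.9 g per kg, from a 15% solution) for 5 days from embryonic day 8 to embryonic day 12, or phosphate-buffered saline (PBS) on the same schedule, and fetal tissue was taken on embryonic day 18. Each group was measured on 1 array, so a difference within a tissue has no replicate check and no p-value. The labels do not say whether RNA of several fetuses was pooled, which litters were used, or whether both tissues came from the same fetuses, so an effect of litter cannot be told apart from an effect of treatment.

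DNA methylation in mammals is placed mainly on cytosines followed by guanine. Dnmt3a and Dnmt3b set new methyl groups, and Dnmt1 copies the pattern onto the new strand after each round of DNA replication, with Uhrf1 binding the half-methylated site and guiding Dnmt1 to it. The Tet enzymes oxidise the methyl group, and Tdg removes the oxidised base so that repair can restore an unmethylated cytosine. In the developing forebrain Dnmt1 and Uhrf1 act in dividing progenitors, and Dnmt3a and the Tet enzymes act in neurons as they mature. These roles are not exclusive.

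Array medians over all probe sets lay between 7.11 and 7.13. Over kept genes the median was 8.57 on the hippocampus ethanol array, against 8.67 on the hippocampus PBS array, 8.66 on the forebrain ethanol array and 8.68 on the forebrain PBS array. The median ethanol difference (ethanol minus PBS, log2) was accordingly -0.08 in hippocampus, where 69.3% of kept genes read lower after ethanol, and -0.01 in forebrain, where 53.8% did. With arrays centred on their medians 4803 of 11013 kept genes read lower in hippocampus and 4893 in forebrain. After quantile normalization 6032 and 5982 did. Markers of hippocampal fields did not set the hippocampus arrays apart: their median difference from forebrain over both treatments was -0.03, with 3 of 9 kept markers higher (7 of 9 with arrays centred on their medians), and 0 of 9 passed limma's test at a Benjamini-Hochberg adjusted p of 0.05 (1 of 9 with arrays centred or quantile normalized). Of all 11013 kept genes 4274 read higher in hippocampus over both treatments, and 6364 with arrays centred. The cortical neuron genes Tbr1, Bcl11b and Neurod6 read between 10.01 and 11.29 on all arrays, but were not level between them. Their ethanol differences in hippocampus were -0.23 for Tbr1, 0.30 for Bcl11b and -0.56 for Neurod6. In forebrain the differences were -0.10, -0.20 and -0.02. Values are given below under the name on the label. The SD of the ethanol difference over kept genes was 0.187 in hippocampus and 0.0941 in forebrain.

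Uhrf1 had the largest ethanol difference of the members in hippocampus, and in forebrain it was second to Tet3. It read 7.90 on the hippocampus ethanol array and 8.44 on the hippocampus PBS array, a difference of -0.54. In forebrain it read 7.86 after ethanol and 8.08 after PBS, a difference of -0.22. Of the 4 arrays the hippocampus PBS array was thus the highest and both ethanol arrays were the lowest, within 0.04 of each other. Among kept genes, 0.708% had a lower ethanol difference in hippocampus and 1.33% in forebrain. With each array centred on its median the Uhrf1 difference was -0.44 in hippocampus and -0.20 in forebrain.

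Beside Uhrf1, 7 other kept genes were at least as low after ethanol in both tissues, and they are named here after their values were seen. They were the deep-layer cortical factor Fezf2, the incretin receptor gene Gipr, the histone gene H4c6, the RNA-binding protein gene Igf2bp1, the potassium channel gene Kcnj13, the PR-domain factor gene Prdm8 and the small nucleolar RNA gene Snora52.

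Only the windows around gene starts that hold the E2F consensus among these members are shown, because E2F factors drive many S-phase genes and both Uhrf1 and Dnmt1 work at the replication fork. Windows of 300 bases, from 250 bases before to 50 bases after a gene start, came from RefSeq on GRCm38.p6 and covered all 9 members with 14 windows. The consensus was searched on both strands, overlaps allowed, as the words TTTCCCGC, TTTCGCGC, TTTGCCGC and TTTGGCGC, and this search was chosen after values were seen. Matches are in capitals, and a match on the opposite strand appears as its reverse complement. The Uhrf1 window lies at chr17:56304063-56304362 on the plus strand and the Dnmt1 window at chr9:20952574-20952873 on the minus strand.
Uhrf1: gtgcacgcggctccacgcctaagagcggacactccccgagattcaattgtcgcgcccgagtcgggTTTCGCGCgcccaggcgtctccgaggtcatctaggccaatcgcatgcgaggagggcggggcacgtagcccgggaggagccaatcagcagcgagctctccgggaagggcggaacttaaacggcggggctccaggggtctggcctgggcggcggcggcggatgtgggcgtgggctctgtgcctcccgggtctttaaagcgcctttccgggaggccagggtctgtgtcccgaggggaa
Dnmt1: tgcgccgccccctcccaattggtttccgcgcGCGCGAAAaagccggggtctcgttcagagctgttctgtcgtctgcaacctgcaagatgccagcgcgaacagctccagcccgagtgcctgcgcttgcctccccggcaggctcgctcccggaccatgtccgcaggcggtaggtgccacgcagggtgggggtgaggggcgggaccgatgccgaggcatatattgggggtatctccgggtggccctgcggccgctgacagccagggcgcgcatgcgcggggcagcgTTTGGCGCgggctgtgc
The Uhrf1 window holds 1 match and the Dnmt1 window holds 2, and the other 12 member windows, which include further starts of both genes, hold none. From the gene start of its window the Uhrf1 match begins at -185 and the first Dnmt1 match at -219. The second Dnmt1 match lies after that gene start. Another Dnmt1 window, chr9:20952930-20953229 on the minus strand, lies before the printed Dnmt1 window, so both matches lie after its gene start. Of all 32851 windows supplied by RefSeq 2.26% hold a match, and of 8827 kept genes with a window 4.78% have at least 1. Among the S-phase genes listed below, 9 of 19 with a window have one. Both printed windows contain 33 CpG dinucleotides, more than 91.4% of all windows, whose median is 7, and the median over windows of kept genes is 21. A match of letters is a description and says nothing of whether a factor binds there.

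The other maintenance genes differed less. Dnmt1, the maintenance methyltransferase, read 9.76 on the hippocampus ethanol array and 9.92 on the hippocampus PBS array, a difference of -0.16. In forebrain it read 9.85 after ethanol and 9.84 after PBS, a difference of 0.01 that became -0.0004 after quantile normalization. The array order of Dnmt1 was thus not that of Uhrf1: its lowest array was hippocampus after ethanol, and both forebrain arrays lay together in between. Uhrf2, which shares the domain layout of Uhrf1 but does not replace it in guiding Dnmt1, read 9.47 on the hippocampus ethanol array and 9.68 on the hippocampus PBS array, a difference of -0.21. Its forebrain values were 9.59 after ethanol and 9.62 after PBS, a difference of -0.03. Against the -0.08 median of kept genes these hippocampus differences were small, and with arrays centred on their medians they were -0.06 for Dnmt1 and -0.11 for Uhrf2. Among kept genes, 27.4% had a lower hippocampus difference than Dnmt1 and 18.8% a lower one than Uhrf2.

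**Figure D1:**
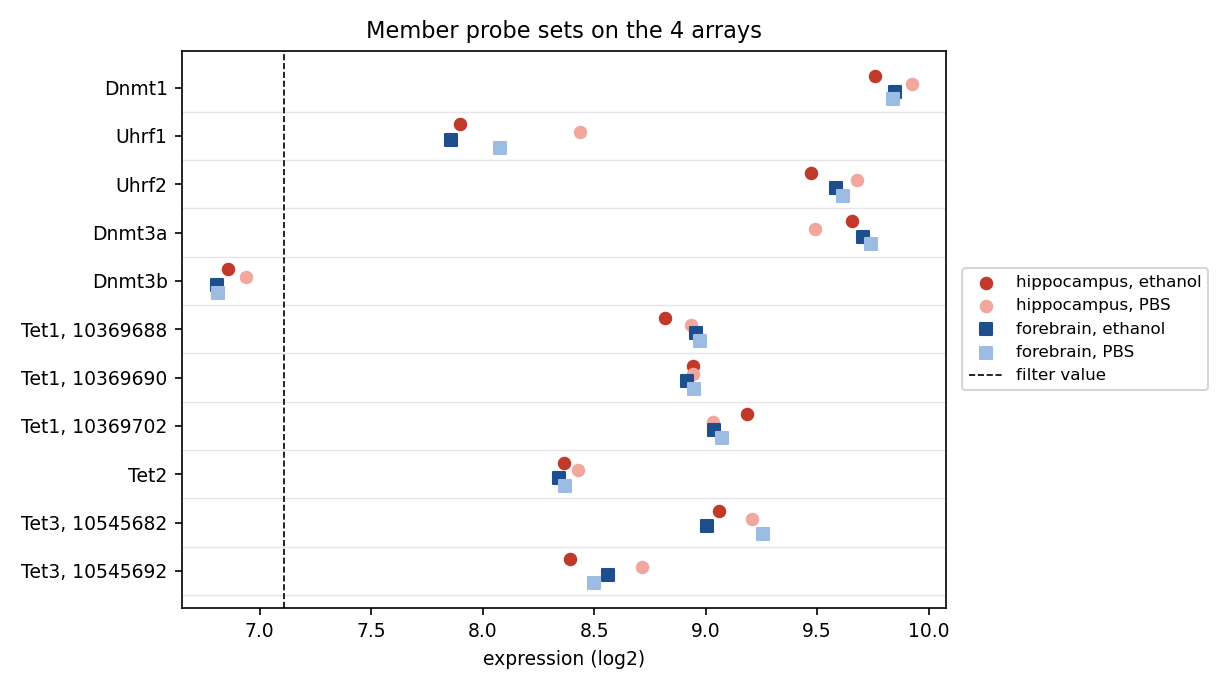
Expression (log2, horizontal axis) of the 11 member probe sets on the 4 arrays, 1 point per array; the dashed line is the filter value of 7.11, and levels of different probe sets are not comparable with each other. Uhrf1 spans 7.86 to 8.44 with both ethanol arrays at its low end, and Dnmt3b lies below the filter value on every array.

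Of the de novo writers, Dnmt3a had the highest hippocampus difference of all members. It read 9.65 on the hippocampus ethanol array and 9.49 on the hippocampus PBS array, a difference of 0.16, and 91.0% of kept genes had a lower one. In forebrain Dnmt3a read 9.71 after ethanol and 9.74 after PBS, a difference of -0.03. The hippocampus PBS array was its lowest and the other arrays lay within 9.65 to 9.74. Dnmt3b, the writer of early embryonic cells, read 6.86 and 6.94 on the hippocampus ethanol and PBS arrays, and 6.81 on both the forebrain ethanol and PBS arrays. These readings lay below the filter value, and they differed by at most 0.13 over the arrays.

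The probe sets of Tet1 differed among themselves, as did those of Tet3. For Tet1, probe set 10369702 read 9.18 on the hippocampus ethanol array and 9.03 on the hippocampus PBS array, a difference of 0.15. Probe set 10369690 read 8.94 on both hippocampus arrays, and probe set 10369688 read 8.82 after ethanol and 8.94 after PBS, a difference of -0.12. The hippocampus differences of Tet1 thus span 0.27 and include both signs, while its forebrain differences, from -0.04 to -0.02, span 0.02. Among 679 other genes with several probe sets above the filter value the median span was 0.10 in hippocampus and 0.06 in forebrain, and 86.5% of them had a smaller hippocampus span than Tet1. Those genes were pooled whatever their number of probe sets. A span can only stay or widen as probe sets are added, so the 3 of Tet1 favour a wide one. Averaged over its probe sets, Tet1 differed by 0.01 in hippocampus.

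Tet3 read lower after ethanol in both tissues by probe set 10545682 and in hippocampus alone by probe set 10545692. Probe set 10545682, the one with the higher mean, read 9.06 on the hippocampus ethanol array and 9.21 on the hippocampus PBS array, a difference of -0.15. In forebrain it read 9.01 after ethanol and 9.26 after PBS, a difference of -0.25, and 0.708% of kept genes had a lower forebrain difference. By this probe set both ethanol arrays lay below both PBS arrays. Probe set 10545692 read 8.39 on the hippocampus ethanol array and 8.72 on the hippocampus PBS array, a difference of -0.32, against 8.56 after ethanol and 8.50 after PBS in forebrain, a difference of 0.06. The spans between these probe sets were 0.18 in hippocampus and 0.31 in forebrain, and 96.6% of the other genes with several probe sets had a smaller forebrain span. The mean of both gave Tet3 a forebrain difference of -0.09.

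Tet2 was nearly level. It read 8.36 on the hippocampus ethanol array and 8.43 on the hippocampus PBS array, and 8.34 and 8.37 on the forebrain ethanol and PBS arrays. Its hippocampus difference of -0.06 was close to the median of kept genes and turned to 0.04 with arrays centred on their medians.

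Counted together, 5 of 7 kept members read lower after ethanol in hippocampus, where 69.3% of kept genes did. In forebrain 6 of 7 did, where 53.8% of kept genes did. In both tissues 4 of 7 read lower, where 42.3% of kept genes did. With arrays centred, and likewise after quantile normalization, the hippocampus count was 4 of 7, since Tet2 changed sign. The forebrain count was 7 of 7 after quantile normalization, since Dnmt1 did. Of 11013 kept genes 4803 read lower in hippocampus with arrays centred and 6032 after quantile normalization. In forebrain 5982 did after quantile normalization. The median member difference was -0.15 in hippocampus and -0.03 in forebrain. No member passed 1.5-fold in either tissue, where 0.917% of kept genes did in hippocampus and 0.0726% in forebrain. The hippocampus background was 54 genes higher and 47 lower, and 116 and 19 with arrays centred. At a smaller limit, a log2 difference of 0.32, Uhrf1 alone passed among the 7 kept members in hippocampus, where 5.95% of kept genes were lower by at least that much, and 0 members passed in forebrain, where 0.191% were. Tet3 probe set 10545692, which does not represent its gene in these counts, was also past that limit in hippocampus.

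**Figure D2:**
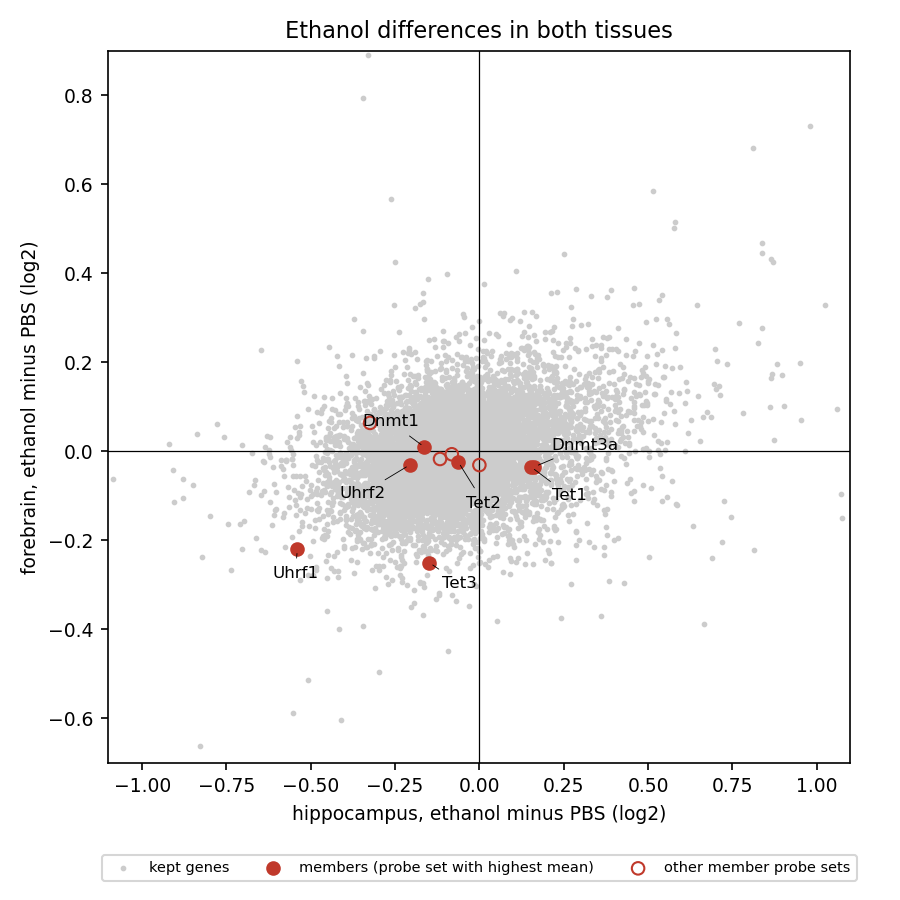
Ethanol minus PBS (log2) in hippocampus (horizontal axis) and forebrain (vertical axis) for kept genes (grey; 2 lie outside the axes) and for member probe sets (red; filled, the probe set with the highest mean of its gene; open, the others, with Dnmt3b among them). Uhrf1 at -0.54 and -0.22 stands at the lower left edge of the grey cloud, Tet3 at its lower edge, and Dnmt3a and Tet1 overlap at 0.16 and 0.15 in hippocampus.

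The single test of ethanol that this design allows, limma over both tissues with tissue as a term and Benjamini-Hochberg adjustment over all kept genes, called 0 members and 0 of all kept genes (0% called), while 9.76% had an unadjusted p below 0.05. Only 1 residual degree of freedom remains in this fit, and a response that differs between the tissues counts as error. The total of 7.53 degrees of freedom behind each p-value is mostly borrowed from other genes. Uhrf1 had an ethanol coefficient of -0.38 (SE 0.0994, limma adjusted p = 0.51, unadjusted p = 0.00565) and ranked 88 by p. For Tet3 the coefficient was -0.20 (SE 0.0741, limma adjusted p = 0.51, unadjusted p = 0.0289). Uhrf1 read lower after ethanol in 2 of 2 tissues, and Tet3 did so by this probe set, 10545682. In a limma fit over all probe sets with 1 symbol, Tet3 probe set 10545692, lower in 1 of 2 tissues, had a coefficient of -0.13 (SE 0.105, adjusted p = 0.722, unadjusted p = 0.25). The other kept members lay between -0.12 for Uhrf2 and 0.06 for Dnmt3a, with limma adjusted p from 0.585 to 0.85.

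Tissue was compared next, as hippocampus minus forebrain. After ethanol Uhrf1 differed by 0.04 between the tissues, and after PBS by 0.36. Dnmt3a differed by -0.05 after ethanol and by -0.25 after PBS. For both genes the gap between the tissues was thus wider after PBS. With arrays centred the values after ethanol were 0.13 for Uhrf1 and 0.04 for Dnmt3a, so that Dnmt3a changed sign, and those after PBS were 0.37 and -0.24. Over both treatments limma gave Uhrf1 a coefficient of 0.20 (SE 0.0994, adjusted p = 0.405) and Dnmt3a one of -0.15 (SE 0.0751, adjusted p = 0.411), and 0 of 7 members passed, where 1.13% of kept genes did. Over both treatments 4 of 7 members read higher in hippocampus, where 4274 of 11013 kept genes did. With arrays centred the counts were 6 of 7 members and 6364 of 11013 kept genes. The remaining members differed by at most 0.15 between tissues after either treatment when each is read by its highest probe set, and Tet1 by 0.23 after ethanol with arrays centred. The difference between the ethanol effects of the tissues (hippocampus minus forebrain) was -0.32 for Uhrf1 and 0.20 for Dnmt3a, with a median of -0.04 over the kept members, and no residual degrees of freedom remain to test it.

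**Figure D3:**
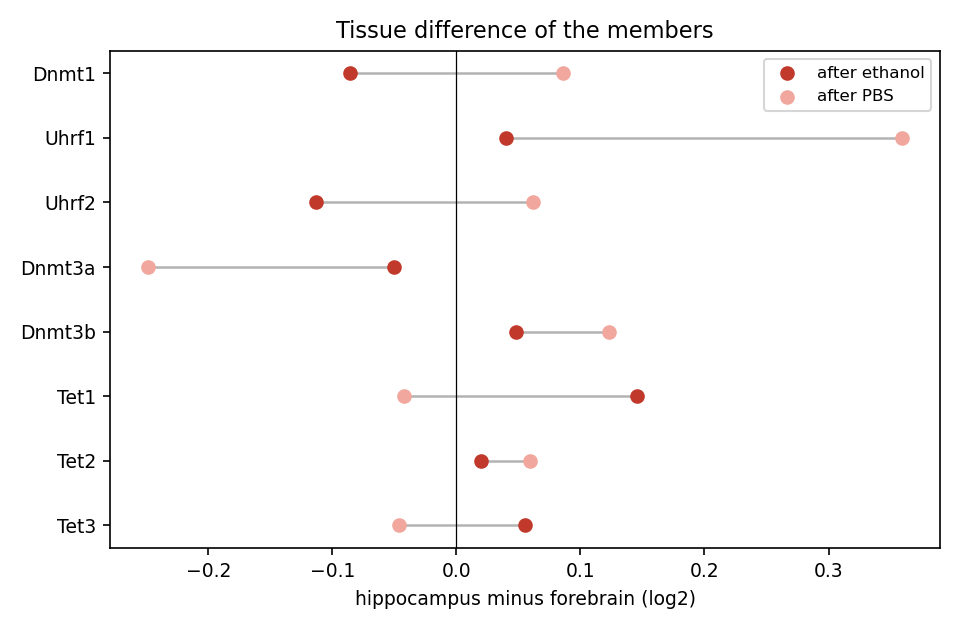
Hippocampus minus forebrain (log2, horizontal axis) for each member by its probe set with the highest mean, after ethanol (dark red) and after PBS (light red), 1 difference of 2 arrays per point. Among these probe sets Uhrf1 has the widest spacing, with 0.04 after ethanol and 0.36 after PBS, and Dnmt3a lies at -0.05 after ethanol (0.04 with arrays centred) and -0.25 after PBS; Tet3 probe set 10545692, not drawn, lay at -0.17 and 0.22.

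Genes that work with the members were listed by role. For the scaled hippocampus counts, 4803 of 11013 kept genes read lower with arrays centred and 6032 after quantile normalization. Of 12 kept partners of the writers, such as chromatin remodellers, deacetylases and histone methyltransferases, 9 read lower after ethanol in hippocampus (median -0.08), which became 5 of 12 with arrays centred and 7 of 12 after quantile normalization, and 10 read lower in forebrain (median -0.06). The deacetylase gene Hdac1 differed by -0.28 in hippocampus and -0.08 in forebrain, and Ehmt1, a histone H3 lysine methyltransferase gene, by -0.18 and -0.12. Hells, the remodeller needed for methylation of repeats, differed by -0.12 and -0.07. None passed limma's ethanol test. Between tissues 1 of the 12 passed: Cdca7, the partner of Hells, named after its values were seen, was higher in hippocampus by 0.48 (SE 0.0698, limma adjusted p = 0.0372). It read 9.62 and 9.57 on the hippocampus ethanol and PBS arrays, against 9.11 on both the forebrain ethanol and PBS arrays. The limma call held in 4 of 6 alternatives, whose adjusted p ran from 0.00258 to 0.0663.

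Readers of methylated CpG showed small differences. Of 7 kept readers 4 read lower after ethanol in hippocampus (median -0.02; 2 of 7 with arrays centred or quantile normalized) and 5 in forebrain (median -0.02). Mbd6 differed by -0.23 in hippocampus and Mbd1 by -0.13, while Zbtb4, a zinc finger reader, differed by 0.07. Of 10 kept genes of base excision and demethylation 8 read lower in hippocampus (median -0.15; 7 with arrays centred) and 7 in forebrain (median -0.03). Mbd4, a glycosylase that like Tdg removes thymine from T-G mispairs, read 7.34 on the hippocampus ethanol array and 7.74 on the hippocampus PBS array, a difference of -0.40, against 7.57 after ethanol and 7.59 after PBS in forebrain. Neil3, a glycosylase gene of dividing cells, differed by -0.38 in hippocampus and -0.24 in forebrain. These were the 2 genes of the 10 that differed by more than 0.32 in hippocampus.

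Tet cofactors and regulators, with 6 kept genes, had 3 lower in each tissue (4 in hippocampus after quantile normalization). Cxxc4, a CXXC protein that binds Tet2, differed by -0.13 in hippocampus and 0.21 in forebrain, and Idh1, which makes the co-substrate of the Tet enzymes, by 0.03 and 0.08. Of the genes that supply the methyl donor 1 was kept, the methionine adenosyltransferase subunit gene Mat2b, at -0.29 and -0.08. In the reader, base excision, Tet cofactor and methyl donor lists 0 genes passed limma's test of ethanol or of tissue.

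Genes of dividing cells were read beside Uhrf1, against the 69.3% of all kept genes in hippocampus and 53.8% in forebrain that read lower after ethanol. With arrays centred 4803 of 11013 kept genes read lower in hippocampus and 4893 in forebrain. Of 22 kept S-phase genes 21 read lower in hippocampus (median -0.14; 19 with arrays centred, median -0.04) and 15 in forebrain (median -0.03). Gins1, of the replication fork helicase, differed by -0.33, the helicase subunit gene Mcm6 by -0.30 and the clamp gene Pcna, whose product recruits Dnmt1, by -0.28 in hippocampus. The Uhrf1 difference of -0.54 was lower than that of every kept S-phase gene. Of the progenitor genes read below, Insm1 (-0.71), Neurog2 (-0.61) and Gli3 (-0.54) were at least as low in hippocampus, and the others were not. Of 14 kept mitotic genes 13 read lower in hippocampus (median -0.21; 12 with arrays centred, median -0.11) and 14 in forebrain (median -0.13; 13 with arrays centred), with the checkpoint kinase gene Bub1 at -0.47 in hippocampus. No gene of either list passed limma's ethanol test. Between tissues 21 of the 22 S-phase genes and all 14 mitotic genes read higher in hippocampus (medians 0.14 and 0.27), where 4274 of 11013 kept genes did. With arrays centred both counts were the same, against 6364 of 11013 kept genes. Of these S-phase and mitotic genes 1 passed: the proliferation marker gene Mki67, named after its values were seen, at 0.45 (SE 0.0771, limma adjusted p = 0.0472, held in 3 of 5 alternatives, from 0.00669 to 0.0772).

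Markers of progenitor stages were read beside them. All 5 kept intermediate progenitor genes read lower in hippocampus, with a median of -0.48, and 4 of 5 in forebrain, with a median of -0.13. The counts were the same with arrays centred, with medians of -0.39 and -0.11, and 0 of the 5 passed limma's ethanol test. Insm1, a zinc finger factor of newborn neurons and their progenitors, read 8.83 on the hippocampus ethanol array and 9.54 on the hippocampus PBS array, a difference of -0.71. Eomes, the defining factor of cortical intermediate progenitors, read 8.70 on the hippocampus ethanol array and 9.18 on the hippocampus PBS array. Radial glia genes had 8 of 12 lower in hippocampus (median -0.15; 7 with arrays centred) and 5 of 12 in forebrain (median 0.01). Neuronal genes had a median of -0.03 in hippocampus and 0.07 in forebrain. In whole tissue, fewer cells of a type and less RNA per cell cannot be told apart, and the part of progenitor content in the Uhrf1 difference was not tested.

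**Figure D4:**
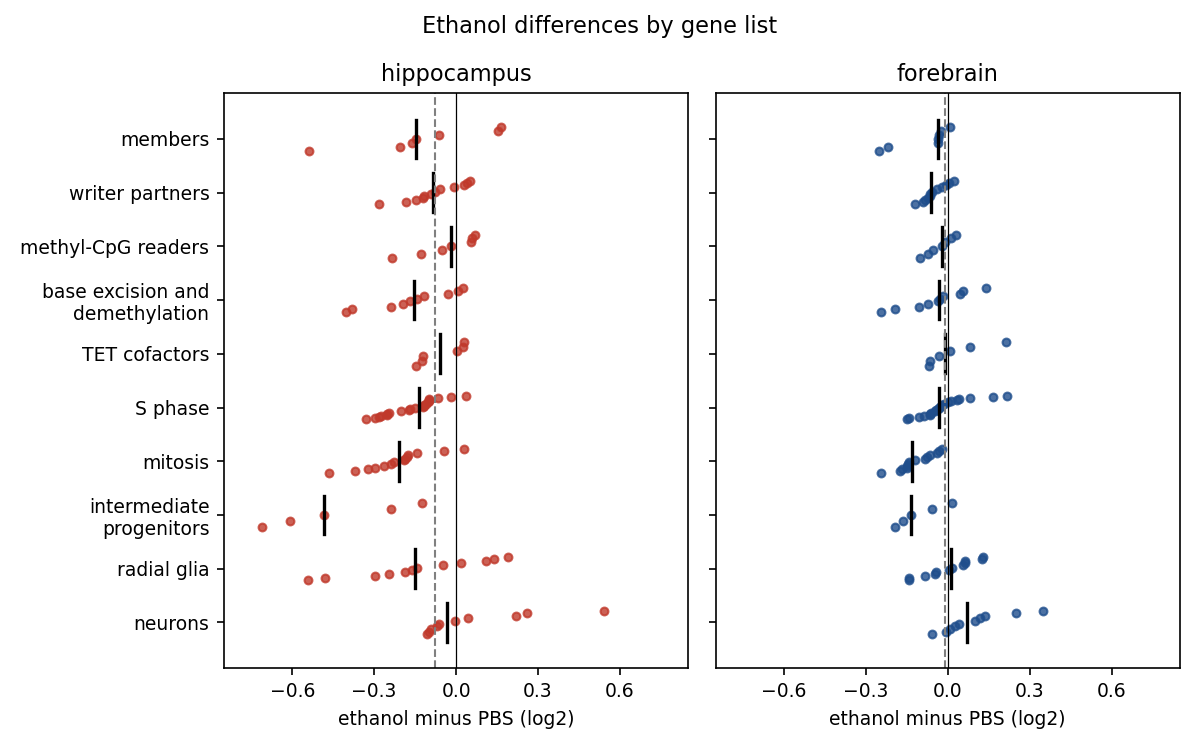
Ethanol minus PBS (log2, horizontal axes) in hippocampus (red) and forebrain (blue) for the kept genes of 10 lists (members, their partners, dividing cells, progenitors and neurons), 1 point per gene, with the list median as a black bar and the median of all kept genes as a dashed line. In hippocampus the plotted medians run from -0.48 for intermediate progenitors to -0.02 for methyl-CpG readers, and Uhrf1 is the leftmost member point at -0.54; with arrays centred the list medians moved up by about 0.10.

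Other cell types also differed between the arrays. Of all 11013 kept genes 7632 read lower and 3380 higher after ethanol in hippocampus, and 4803 and 6210 with arrays centred. The striatal, meningeal and choroid plexus counts below were the same with arrays centred. All 8 kept striatal markers read higher after ethanol in hippocampus (median 0.50), and their mean level was 9.20 on the hippocampus ethanol array, 8.73 on the hippocampus PBS array, 8.56 on the forebrain ethanol array and 8.60 on the forebrain PBS array. All 5 kept meningeal markers read higher after ethanol in hippocampus (median 0.50), with mean levels of 8.58 and 8.16 on the hippocampus ethanol and PBS arrays and 9.16 and 9.33 on the forebrain ethanol and PBS arrays. All 4 kept choroid plexus markers read lower after ethanol in hippocampus (median -0.26), while 3 of 4 read higher in forebrain (median 0.09). Microglial markers had a median of 0.01 in both tissues. Of the 4 endothelial markers 2 read lower in hippocampus (median -0.04), and of 4 erythroid markers 1 was kept, at -0.04. Between tissues 5 of these markers passed limma's test. Higher in hippocampus were the striatal gene Ebf1 by 0.85 (adjusted p = 0.0384) and the choroid plexus gene Ttr by 0.42 (adjusted p = 0.0417). Lower in hippocampus were the meningeal genes Col1a1 at -0.80, Col1a2 at -0.92 and Slc6a13 at -1.08 (limma adjusted p from 0.0175 to 0.0348). The call of Col1a2 held in 6 of 6 alternatives, that of Col1a1 in 5 of 6, those of Ebf1 and Ttr in 4 of 6 and that of Slc6a13 in 2 of 5. The part of these cells in the member differences was not tested.

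The genes with array profiles most like that of Uhrf1 were found by the smallest distance between log2 values centred on each gene's mean over the 4 arrays. Genes with predicted or clone names were left out of this ranking. They were Palmd (distance 0.055), Eid3 (0.058), Sinhcaf (0.0607), Ier5 (0.067), Tiam2 (0.0701) and Mir99a (0.0764), the last being a probe set on the precursor. Palmd, for example, read 8.57 on the hippocampus ethanol array and 9.11 on the hippocampus PBS array, and 8.60 on the forebrain ethanol array and 8.78 on the forebrain PBS array. Over 4 arrays such likeness is common, since 6.37% of the other kept genes had a Pearson r of at least 0.95 with Uhrf1.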

How the data were processed

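Per the labels' protocols, RNA was isolated by Trizol and 6 ug of it went into biotinylated cRNA. MAS5 is the tool named in the submitters' processing notes, and how background, summarization and normalization were done is not given here. The authors' deposited values were read as log2 from their range (1.58 to 13.96), since no label gives the scale. Probe sets were named from the platform annotation (21789 with 1 symbol, 1621 with several, 12147 with none). Of those with 1 symbol, 21698 probe sets matched RefSeq (GRCm38.p6) by gene identifier, with 0 symbols changed.

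Within a tissue the log2 values of 2 arrays were subtracted, with no test, and counted at 1.5-fold. For all arrays together limma 3.58.1 (R 4.3.3) used treatment and tissue as additive terms with a trended eBayes, and its adjusted p is Benjamini-Hochberg over 11013 kept genes at 0.05. It was first tested on simulated data with noise of the same SD for every gene. There each changed gene had the same change in both tissues, and no array was shifted. That test therefore did not cover effects that differ between tissues or a shifted array. Limma's p-values rest on how unlike the treatment difference is in the tissues, shrunk to a variance trend over all kept genes. They do not measure the spread between replicates, of which there are none, and the small number of arrays limits the precision. Tables and plots used Python 3.11.15 with pandas 2.3.3, numpy 2.4.6 and matplotlib 3.10.9.

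The members, lists and rules were chosen with earlier results of these data known. All probe sets of the members are described, and from each list up to 5 kept genes with the largest hippocampus ethanol difference could be named, with 6 genes most like the member of widest range (Uhrf1). Alternatives were array centring, quantile normalization, a filter at the 75th percentile or none, the mean of probe sets, limits of 2-fold and of 0.32 on the log2 scale, no trend, and a fit over all probe sets.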

Additional observations from a re-analysis of the deposited data

Results flagged for a closer look

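Some members had ethanol differences of opposite sign in the tissues, and the differences between them were not tested, since each rests on 4 single arrays. The hippocampus minus forebrain ethanol effect was -0.17 for Dnmt1, 0.20 for Dnmt3a, 0.19 for Tet1 probe set 10369702 and -0.39 for Tet3 probe set 10545692. Seen the other way, hippocampus minus forebrain had opposite signs after ethanol and after PBS, again untested, for Dnmt1 (-0.17), Uhrf2 (-0.18), Tet1 probe sets 10369690 (0.031) and 10369702 (0.19), and Tet3 probe sets 10545682 (0.10) and 10545692 (-0.39), where each value is the tissue difference after ethanol minus that after PBS. Several of these signs depend on the scaling. With arrays centred, Dnmt1 read 0.0032 after ethanol and 0.096 after PBS and Tet1 probe set 10369690 read 0.11 and 0.0018, no longer opposite, while Dnmt3a became opposite at 0.04 and -0.24. After quantile normalization the ethanol effects of Dnmt1 were -0.11 in hippocampus and -0.0004 in forebrain, of the same sign.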

How the results depend on the processing

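The count of members past 1.5-fold stayed at 0 in hippocampus under 6 of 7 alternatives and became 1 at a limit of 0.32 on the log2 scale. In forebrain it was 0 under each of 7. Several of these outcomes were fixed beforehand. A limit of 2-fold or a stricter filter cannot raise a count of 0. Dropping the filter added only Dnmt3b, and the mean of probe sets altered only Tet1 and Tet3. Limma called 0 members for ethanol and 0 for tissue under each of 7 alternatives. The adjusted p of Uhrf1 for ethanol ran from 0.218 to 0.618 over 5 alternatives, and that of Tet3 from 0.384 to 0.618 over 6. The median difference between the tissues' ethanol effects over kept members was -0.04, and it was 0.04 with arrays centred, 0.05 after quantile normalization, 0.10 with the filter at the 75th percentile, which leaves out Uhrf1 and Tet2, and -0.14 with the mean of probe sets. Of 66 values of single members under alternatives, 3 had the other sign (Dnmt1 in forebrain and Tet2 in hippocampus). Another 2 moved by more than 0.1 on the log2 scale (Tet1 in hippocampus and Tet3 in forebrain, both with the mean of probe sets). Many of the 66 could not change. A filter leaves the value of a kept member as it was, and the mean of probe sets alters only Tet1 and Tet3. The sign changes all came from array centring or quantile normalization.

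Over all kept genes the 1.5-fold counts in hippocampus, 54 higher and 47 lower, were 116 and 19 with arrays centred, 88 and 31 after quantile normalization, 23 and 30 with the stricter filter and 131 and 77 without one, and 6 and 1 at 2-fold. In forebrain 5 and 3 became 24 and 22 without a filter and 1 and 1 with the stricter one, and 6 and 1 with arrays centred. Limma's ethanol calls, 0 in all, were 2 with arrays centred, 14 after quantile normalization and 7 with the stricter filter. Its 124 tissue calls were 66 with arrays centred, 416 after quantile normalization, 37 without a filter, 27 without a trend and 40 over all probe sets. The causes were not tested. No paired analysis was possible because the labels carry no replicate numbers and each group has 1 array, and leaving out an array leaves no residual degrees of freedom.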
